A study of Mus musculus with 12 samples.

Results

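The cytokine genes Il2, Il21, Il4, Il13, Il5, Ifng and Il10 were examined in 4 genome windows that hold them, as accessible chromatin mapped by ATAC-seq in mouse T cells. ATAC-seq inserts sequencing adapters into open DNA with the Tn5 transposase, and a peak is a stretch where insertions pile up. The windows, on the mouse genome build NCBIM37, were chr3:36950000-37150000 for Il2 and Il21, chr11:53370000-53600000 for Il4, Il13 and Il5, chr10:117780000-117960000 for Ifng and chr1:132880000-132990000 for Il10. Membership went by position alone, and every peak that overlapped a window belongs to the set. The windows themselves were chosen with earlier results of these data known. Peaks of the 12 libraries that overlapped or touched were merged into 40457 regions over the genome, of which 32 lay in the windows. Of these 32, 30 were found in 2 or more libraries and entered the comparisons, and 2 were peaks of a single library. Regions are numbered here along each window from its lowest coordinate.

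The cells were splenic CD4+ T cells of Foxp3-IRES-EGFP reporter mice, in which green fluorescence marks cells that express Foxp3, the lineage factor of regulatory T cells. GFP+ cells were sorted as regulatory T cells (Treg) and GFP- cells as conventional T cells (Tconv), 100000 cells a library, from wild-type (WT) mice and from mice labelled Lrrc32+ 70k enhancer KO (KO), which lack a distal enhancer named for Lrrc32. Each of the 4 groups (WT Treg, KO Treg, WT Tconv, KO Tconv) had 3 libraries, and WT and KO mice carried the same reporter. The labels do not say whether the libraries of a group came from separate animals. The tests of cell types therefore count libraries, with WT and KO pooled, and variation between libraries may be technical. The labels name no activation marker in the sort, and the shares of naive, effector and memory cells in the gates were not measured. The cell types were taken from the gate, and no marker gene was checked because no gene annotation of this build was used.

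The deposit record gave the library of each list. Peak names within most lists carry a sample number that differs from the number in the deposit, and the sources used here do not explain the mismatch, so every group difference rests on the deposited assignment. KO Treg replicate 2 stood apart, with 5262 peaks against 21269 to 27605 in the other 11 lists. It held a peak in 1 of the 30 regions (3.33%) and in 14.5% of regions genome-wide. Counts of called regions and covered lengths are therefore given with and without it. The depth of the libraries is unknown. The weakest peak of every list had a −log10 p between 5.01 and 5.06 from the authors' peak caller, so a region just below that limit reads as closed. In sorted bulk cells, a site open in fewer cells and a site less open in every cell cannot be told apart.

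Il2 encodes the growth factor that activated conventional T cells secrete and that Treg cells consume through their high-affinity receptor, and Foxp3 is known to repress Il2. Its neighbour Il21 encodes a cytokine of follicular helper cells that acts on B cells. Il4, Il13 and Il5 form the type 2 cytokine cluster, in which Il4 drives IgE switching and type 2 differentiation, Il13 acts on epithelium and Il5 on eosinophils. Ifng encodes interferon-γ, the macrophage-activating cytokine of type 1 T cells. Il10 encodes an anti-inflammatory cytokine that Treg and other T cells make, in particular at mucosal surfaces. All of these genes are largely silent in resting T cells and are switched on after receptor signalling through factors such as NFAT, acting on promoters and on enhancers scattered through each locus.

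The promoters of Il2, Ifng and Il4 are shown because their genes lie in windows with different peak patterns, Il2 in the window with Tconv-enriched regions, Ifng in that with Treg-enriched regions and Il4 in that with neither. RefSeq promoter sequences of build GRCm38.p6 were matched for 6 of the 7 genes, all but Il10, and the 250 bases before each start are printed 5′ to 3′ on the gene's strand. Capitals mark GGAAA and its reverse complement TTTCC, the core letters of NFAT sites, which other factors also read. The positions are chr3:37125955-37126204 (minus strand), chr10:118440796-118441045 (plus strand) and chr11:53618666-53618915 (minus strand) on GRCm38.p6, and they cannot be set against the NCBIM37 peaks.
Il2: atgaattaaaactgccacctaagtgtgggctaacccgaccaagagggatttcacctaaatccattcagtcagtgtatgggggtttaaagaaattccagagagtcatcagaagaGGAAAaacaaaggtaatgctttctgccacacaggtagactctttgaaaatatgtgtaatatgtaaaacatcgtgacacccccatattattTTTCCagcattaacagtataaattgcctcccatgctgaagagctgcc
Ifng: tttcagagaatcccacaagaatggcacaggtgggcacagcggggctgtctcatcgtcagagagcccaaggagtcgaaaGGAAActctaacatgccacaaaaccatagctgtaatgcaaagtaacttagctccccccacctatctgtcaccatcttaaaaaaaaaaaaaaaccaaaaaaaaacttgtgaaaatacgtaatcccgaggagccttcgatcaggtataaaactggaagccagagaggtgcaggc
Il4: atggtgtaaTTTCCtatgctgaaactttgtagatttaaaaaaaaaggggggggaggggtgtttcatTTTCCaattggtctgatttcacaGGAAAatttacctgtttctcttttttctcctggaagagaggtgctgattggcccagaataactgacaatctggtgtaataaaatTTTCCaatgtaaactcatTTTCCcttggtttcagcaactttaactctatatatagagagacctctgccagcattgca
The Il2 stretch held 2 copies, the Ifng stretch 1 and this Il4 stretch 5, while that of a second Il4 start held 0. Il13 had 4 copies, Il21 had 3 and Il5 had 2. Over 32851 promoter stretches of the same length, 55.6% held at least 1 copy, 21.4% at least 2, 6.39% at least 3, 1.59% at least 4 and 0.390% at least 5. A match is a description of letters and not a bound site.

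The Ifng and Il10 windows had peaks in Treg at places where Tconv had few or none. The Il2/Il21 window had a pair of neighbouring regions with the reverse pattern. No peak of any window was assigned to a gene, because no annotation of NCBIM37 was used. A region was called Treg-enriched or Tconv-enriched when at most 1 of 12 libraries departed from a peak in every library of one type and in none of the other. Of the 30 regions, 4 were Treg-enriched, against 3.20% of all 32787 regions kept genome-wide. They were Ifng regions 3, 6 and 7 and Il10 region 2. Another 2 were Tconv-enriched, against 3.55% genome-wide, and these were Il2/Il21 regions 4 and 5. Without KO Treg replicate 2, and with at most 1 of 11 libraries against the pattern, 8 were Treg-enriched (4 at Ifng and 4 at Il10), against 6.21% genome-wide. The same 2 Il2/Il21 regions were then Tconv-enriched, against 3.56%. No region of the Il4/Il13/Il5 window was called either way.

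Each region's presence in 6 Treg and 6 Tconv libraries was tested with a two-sided Fisher's exact test and Benjamini-Hochberg adjustment. Adjusted over all 32787 regions, no region of the genome passed 0.05 (smallest adjusted p 0.123), while 2213 had an unadjusted p under 0.05, 6 of them in the windows. The adjustment was repeated over the 5679 regions with a peak in 5 to 7 libraries. Only these can separate the types with at most 1 library against. Of them 2213 passed, all 6 called regions included. The regions that passed are the ones that meet the calling rule, so this adjusted p restates the call and gives it no separate support. Without KO Treg replicate 2, 1572 of 32749 regions passed genome-wide. Il2/Il21 region 4, Ifng regions 3, 6 and 7 and Il10 region 2 were among them, each at an adjusted p of 0.0451. The other regions called in the windows were not, at 0.155. The value 0.0451 was the smallest reached, and it belongs to regions with a peak in every library of one type and in none of the other. It restates that split and gives the calls no separate support.

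**Figure D1:**
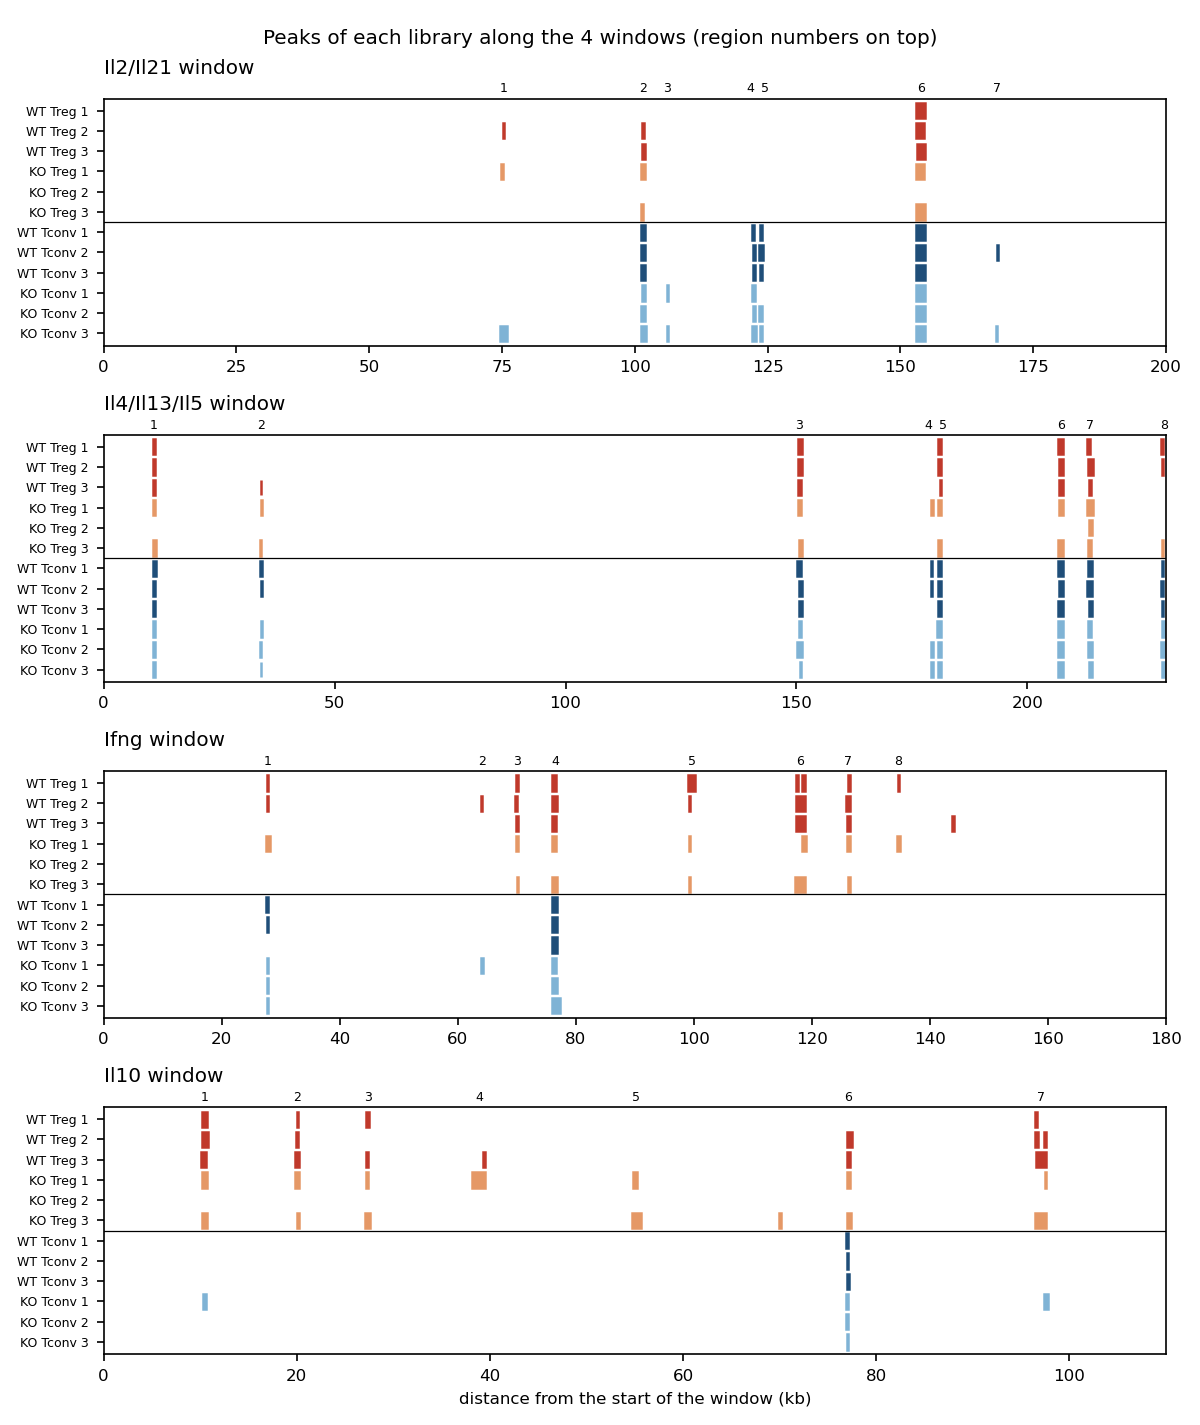
Peaks of the 12 libraries along the 4 windows, with distance from the start of each window in kb on the x axis, a row per library and region numbers on top. Outlines widen the narrowest peaks slightly. Il2/Il21 regions 3, 4, 5 and 7 appear in Tconv rows only, and Ifng regions 3 and 5 to 8 in Treg rows only.

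The windows were rich in peaks but held few that every library shared. They carried 4.17 kept regions per 100 kb against 1.24 over the genome, with 3.50 at Il2/Il21, 3.48 at Il4/Il13/Il5, 4.44 at Ifng and 6.36 at Il10. Of the 30 regions, 7 (23.3%) had a peak in all 11 lists other than KO Treg replicate 2, against 44.9% genome-wide. Il4/Il13/Il5 held 5 of these, Il2/Il21 and Ifng 1 each and Il10 none. Median width was 724 bp, against 750 bp genome-wide. Peak strength was ranked as the percentile of a peak's −log10 p among all peaks of its own list, and the median region's mean percentile was 31.3 in the windows and 37.4 genome-wide.

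The number of peaks per library showed the same contrast between windows. It counts the same peaks that made the calls, so it describes them and is no separate support. In the Ifng window the WT Treg libraries had 8, 7 and 5 peaks, the KO Treg libraries 7, 0 and 5, the WT Tconv libraries 2, 2 and 1 and the KO Tconv libraries 3, 2 and 2. In the Il10 window the counts were 4, 5 and 6 in WT Treg, 7, 0 and 7 in KO Treg, 1, 1 and 1 in WT Tconv and 3, 1 and 1 in KO Tconv. Every Treg list other than KO Treg replicate 2 thus held more peaks than every Tconv list in both windows. Among 200-kb tiles of the genome with peaks, 6.52% had more peaks in each of those 5 Treg lists than in every Tconv list, and 2.89% had the reverse. The tiles are not matched to the windows. The Ifng and Il10 windows were 180 and 110 kb long, with 4.44 and 6.36 kept regions per 100 kb against 1.24 genome-wide. Tiles with few peaks can hardly separate the lists.

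The Il2/Il21 window ran the other way, with 1, 3 and 2 peaks in WT Treg, 3, 0 and 2 in KO Treg, 4, 5 and 4 in WT Tconv and 4, 4 and 7 in KO Tconv. No Treg list reached the lowest Tconv count there. At Il4/Il13/Il5 the counts overlapped, with 6, 6 and 6 in WT Treg, 7, 1 and 7 in KO Treg, 8, 8 and 6 in WT Tconv and 7, 8 and 8 in KO Tconv.

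**Figure D2:**
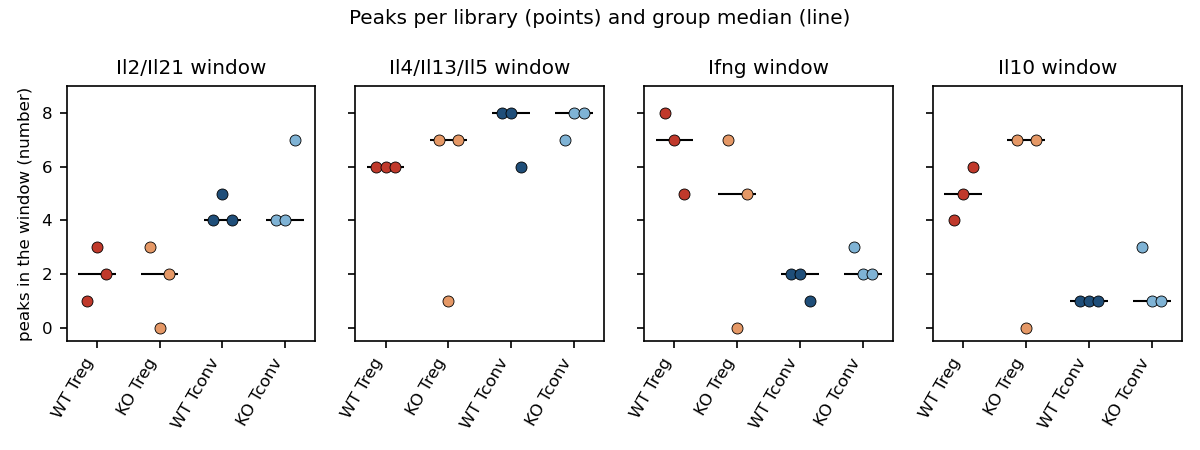
Number of peaks per library (y axis) in each window, with a point per library in the 4 groups and a line at each group's median. KO Treg replicate 2 is the lowest point in every window, and the other Treg libraries lie above the Tconv libraries at Ifng and Il10 and below them at Il2/Il21.

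Covered length was taken from the same peaks and followed their counts. Without KO Treg replicate 2, Treg peaks covered 3587.8 ± 451.1 bp of the Ifng window (SD, n = 5) and Tconv peaks 1208.8 ± 224.0 bp (SD, n = 6). In the Il10 window they covered 2573.6 ± 1092.5 bp in Treg and 316.7 ± 306.5 bp in Tconv. In the Il2/Il21 window coverage was 2141.8 ± 423.7 bp in Treg and 3692.2 ± 928.9 bp in Tconv, and in the Il4/Il13/Il5 window 3839.2 ± 523.8 bp and 4295.7 ± 648.4 bp. With KO Treg replicate 2, Treg coverage was 2989.8 ± 1519.3 bp at Ifng, 2144.7 ± 1434.8 bp at Il10, 1784.8 ± 953.0 bp at Il2/Il21 and 3300.3 ± 1400.6 bp at Il4/Il13/Il5 (SD, n = 6). Covered lengths were not tested.

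By gene order on GRCm38.p6, Il2 and Il21 lie side by side between Adad1 and Cetn4. In their window, region 4 (chr3:37072092-37072832) had a peak in 6 of 6 Tconv and 0 of 6 Treg libraries. Its percentiles were 21.8, 52.2 and 48.7 in WT Tconv and 59.1, 34.6 and 35.1 in KO Tconv, and the authors' fold over background ranged from 4.95 to 6.48. The WT and KO ranges overlapped. Fisher's exact test gave p = 0.00216, with an adjusted p of 0.123 over all regions, 0.0214 over regions in 5 to 7 libraries and 0.0451 over all regions without KO Treg replicate 2. It was the only region of the 30 that separated the types in all 12 libraries.

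Region 5 (chr3:37073390-37074048), its next neighbour, was open in 5 of 6 Tconv and 0 of 6 Treg libraries. Its percentiles were 28.6, 5.31 and 6.99 in WT Tconv and 27.8 and 25.4 in KO Tconv replicates 2 and 3, and KO Tconv replicate 1 had no peak. These were weak peaks, the lower ones near the limit of their lists. Fisher's exact p was 0.0152, with an adjusted p of 0.224 over all regions, 0.0389 over regions in 5 to 7 libraries and 0.155 over all regions without KO Treg replicate 2.

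Other regions of this window were shared or thin. Region 6 (chr3:37102895-37104717), the widest of the 30 at 1823 bp, was open in all 11 lists other than KO Treg replicate 2, at a percentile of 60.1 ± 6.32 (SD, n = 11). Region 2 (chr3:37051095-37052142) was present in both types but ranked higher in Tconv. Its Tconv percentiles were 51.9, 67.3 and 72.2 in WT and 54.8, 38.9 and 69.3 in KO, and its 4 Treg percentiles were 9.17, 12.3, 31.5 and 24.9. WT Treg replicate 1 and KO Treg replicate 2 had no peak there. With all 11 lists reduced to their strongest 21269 peaks, 3 Treg lists kept it, at percentiles of 5.61 to 20.5, and all 6 Tconv lists did, at 29.2 to 72.2. Regions 1, 3 and 7 were open in 3, 2 and 2 libraries, and region 3 in KO Tconv replicates 1 and 3 only.

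Ifng lies between Iltifb and Dyrk2 by gene order. Its window held 3 regions with a peak in every Treg library but KO Treg replicate 2 and in no Tconv library. Region 6 (chr10:117897139-117898927) was the strongest of them and 1789 bp wide. Its percentiles were 49.9, 53.7 and 39.2 in WT Treg and 62.4 and 26.0 in KO Treg replicates 1 and 3. The KO pair lay on both sides of the WT values. Region 3 (chr10:117849775-117850142) had percentiles of 32.5, 26.0 and 21.6 in WT Treg and 18.4 and 6.04 in KO Treg. Region 7 (chr10:117905830-117906536) had 24.2, 16.1 and 56.2 in WT Treg and 29.8 and 3.11 in KO Treg. KO Treg replicate 3 had the lowest value of all 3 regions.

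Each of these 3 regions had a Fisher's exact p of 0.0152, with an adjusted p of 0.224 over all regions, 0.0389 over regions in 5 to 7 libraries and 0.0451 over all regions without KO Treg replicate 2. Region 5 (chr10:117879095-117880243) also had no Tconv peak. WT Treg replicate 3 and KO Treg replicate 2 lacked it, so it was called only without the latter (exact p = 0.0152, adjusted p = 0.155). Its percentiles were 24.7 and 46.0 in WT Treg replicates 1 and 2 and 37.0 and 46.3 in KO Treg replicates 1 and 3.

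Not all of the Ifng window was open in Treg alone. Region 4 (chr10:117855887-117857272) was the strongest of the 30 regions in mean rank, at a percentile of 87.5 ± 5.92 (SD, n = 11), and was open in every list but KO Treg replicate 2. It reached 89.3, 89.1 and 94.3 in WT Treg, 89.5 and 84.1 in KO Treg, 91.2, 86.5 and 90.7 in WT Tconv and 93.5, 76.7 and 77.3 in KO Tconv. The types overlapped throughout. Region 1 (chr10:117807457-117808124) was open in 3 Treg and 5 Tconv libraries, at 56.3 ± 13.6 (SD, n = 8). Regions 2 and 8 were open in 2 libraries each, and the single-library peak of this window was in WT Treg replicate 3.

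Il10 lies between Il19 and Mapkapk2 by gene order. Of the 7 regions kept in its window, 4 were called Treg-enriched once KO Treg replicate 2 was left out. Region 2 (chr1:132899802-132900264) was open in the other 5 Treg and in no Tconv libraries, at percentiles of 21.7, 8.87 and 34.1 in WT Treg and 18.9 and 3.20 in KO Treg. The peaks were weak in both genotypes, and their ranges overlapped. Its tests gave the same values as Ifng regions 3, 6 and 7, an exact p of 0.0152 and adjusted p-values of 0.224, 0.0389 and 0.0451.

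Region 1 (chr1:132890128-132890816) was the strongest of the Il10 window. Its percentiles were 66.9, 54.1 and 85.9 in WT Treg and 85.4 and 69.3 in KO Treg replicates 1 and 3. Of the Tconv libraries, only KO Tconv replicate 1 had a peak there, at 27.3. All 5 Treg values thus lay above the single Tconv value. Fisher's exact p was 0.0801 in all 12 libraries and 0.0152 without KO Treg replicate 2, where the adjusted p was 0.155.

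Region 3 (chr1:132907053-132907554) had peaks in 4 Treg and no Tconv libraries, at 35.5 and 10.5 in WT Treg replicates 1 and 3 and 47.6 and 38.5 in KO Treg replicates 1 and 3. Region 7 (chr1:132976444-132977792) had peaks in the 5 Treg libraries, at 4.84, 26.8 and 14.3 in WT and 47.2 and 25.3 in KO, and in KO Tconv replicate 1 at 24.1. Both were called only without KO Treg replicate 2, with an adjusted p of 0.155. KO Tconv replicate 1 was the only Tconv library with a peak in either region 1 or region 7.

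Region 6 (chr1:132956826-132957488) was the one Il10 region open in all Tconv libraries. It was also open in 4 Treg libraries. Its Tconv percentiles were 45.2, 48.0 and 50.9 in WT and 31.4, 32.1 and 15.5 in KO, and its Treg percentiles were 29.1, 2.56, 24.2 and 17.4. Regions 4 and 5 were open in 2 Treg libraries each, and the single-library peak of this window was in KO Treg replicate 3.

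No region of the type 2 cluster separated the cell types, and most were open in both. Regions 1, 3, 5, 6 and 7 of the Il4/Il13/Il5 window had a peak in every list other than KO Treg replicate 2, and region 7 in that list too. Rad50, a broadly expressed DNA repair gene, lies between Il13 and Il5, and Kif3a and Irf1 flank the cluster. Which of these genes a peak falls in was not determined, because no annotation of NCBIM37 was used.

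Region 6 (chr11:53576552-53577765) ranked highest, at 65.9 ± 10.3 (SD, n = 11). It reached 67.7, 80.8 and 68.7 in WT Treg, 65.2 and 64.0 in KO Treg, 72.5, 72.9 and 65.1 in WT Tconv and 64.3, 39.1 and 64.1 in KO Tconv. KO Tconv replicate 2 was the low library. Region 7 (chr11:53582888-53584232) had 72.4, 62.8 and 48.0 in WT Treg, 50.2, 15.1 and 67.6 in KO Treg, 64.6, 49.2 and 49.3 in WT Tconv and 63.3, 61.8 and 57.1 in KO Tconv. Its low value was that of KO Treg replicate 2, whose list is short.

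The regions that differed most in presence at the type 2 cluster were regions 4 and 8. Region 4 (chr11:53549177-53549555) was open in KO Treg replicate 1, WT Tconv replicates 1 and 2 and KO Tconv replicates 2 and 3, at percentiles of 30.9, 68.4, 15.3, 23.1 and 58.0 (exact p = 0.242). Region 8 (chr11:53599010-53600280), which crosses the end of the window, was open in 3 Treg and 6 Tconv libraries (exact p = 0.182). Region 2 was open in 8 libraries. Region 3 (chr11:53520213-53521139) was open in 11, at percentiles of 53.5, 39.6 and 27.3 in WT Treg, 23.4 and 29.2 in KO Treg, 64.1, 72.0 and 49.3 in WT Tconv and 65.2, 50.4 and 64.0 in KO Tconv. WT Treg replicate 1 was the one Treg library within the Tconv range.

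**Figure D3:**
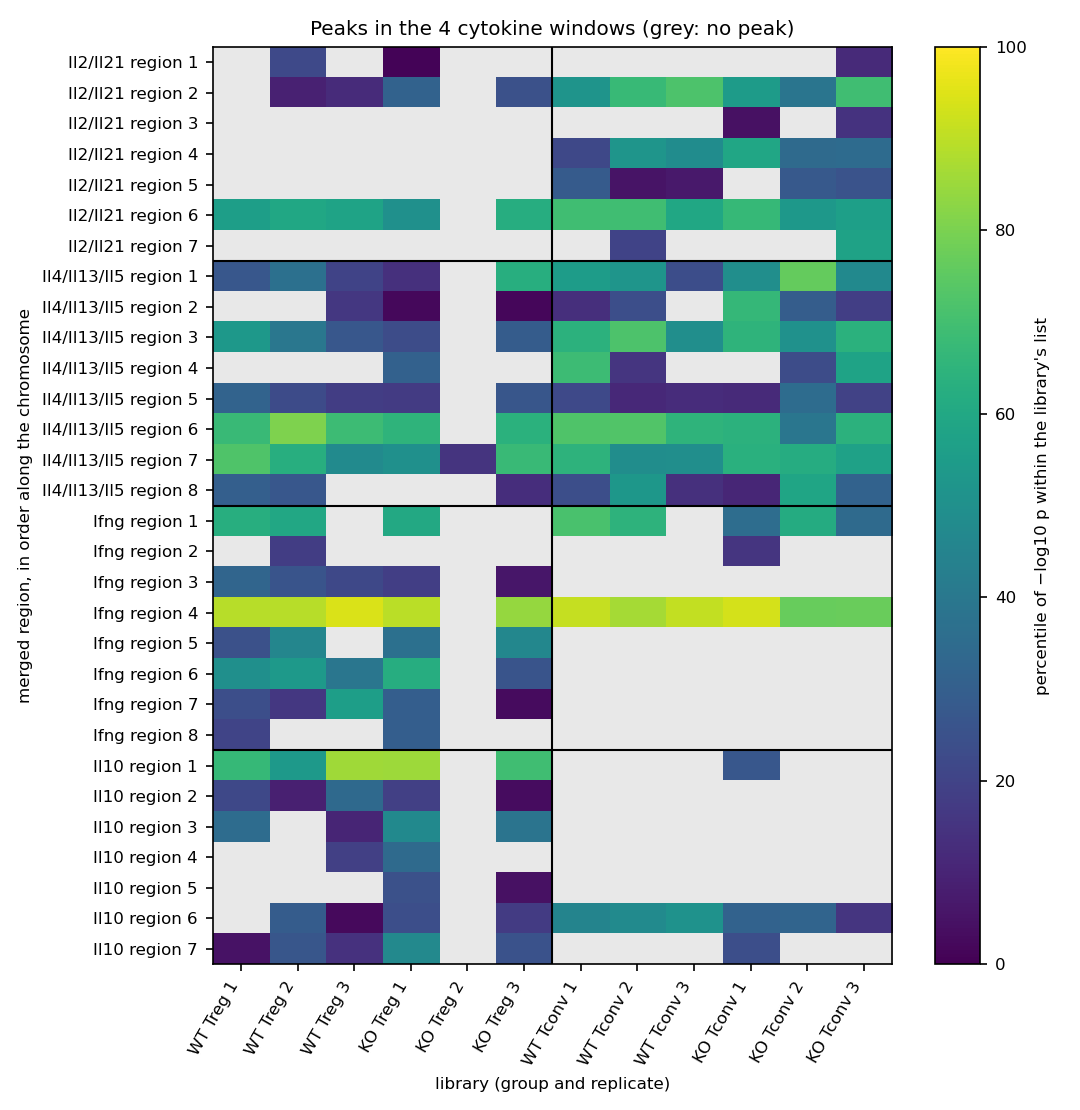
Within-list percentile of −log10 p for each of the 30 regions (rows) in each of the 12 libraries (columns), grey where a library had no peak. Ifng regions 3 and 5 to 8 and Il10 regions 2 to 5 are grey in every Tconv column, and Il2/Il21 regions 3, 4, 5 and 7 in every Treg column.

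The enhancer deletion was compared within each cell type. In Treg, no region of the windows was open in 3 of 3 WT and 0 of 3 KO libraries, against 0.973% of regions genome-wide, and none had the reverse, against 0.0305%. A Fisher's exact test of 3 against 3 libraries cannot go below p = 0.1, so the comparison is by presence only. Without KO Treg replicate 2 none was lost, against 0.977%, and 1 was gained, against 1.08%. That region, Il10 region 5 (chr1:132934742-132935626), had peaks in KO Treg replicates 1 and 3 at percentiles of 24.9 and 4.40, and in no other library.

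In Tconv, no region was lost in KO, against 0.189% genome-wide, and none was gained, against 0.793%. Peak strength was compared between the 6 Tconv lists with each list reduced to its strongest 21269 peaks, as a description without a test. Of 8 member regions present in all 6 lists, 1 ranked higher in every WT than in every KO library, against 5.83% of regions genome-wide. It was Il4/Il13/Il5 region 6, with 65.1 to 69.0 in WT and 29.4 to 58.2 in KO, the lowest in KO Tconv replicate 2. This count leaves out any region that falls below the length limit in even 1 list, and so can miss regions that are low in one genotype. Il10 region 6 was left out in this way, with 38.1, 40.0 and 50.9 in WT and 19.8 and 21.3 in KO Tconv replicates 1 and 2, and no peak within the limit in KO Tconv replicate 3. None of the 8 ranked higher in every KO library, against 7.19%.

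The same ranking between cell types covered 5 member regions present in all 11 lists. None had percentiles higher in every Treg than in every Tconv list, against 3.35% genome-wide, and none the reverse, against 2.94%. The ranks of these 5 regions overlapped between the types, and the calls above rest on which regions held a peak. This count also leaves out any region that falls below the length limit in even 1 list, and so can miss differences in strength. Il2/Il21 region 2 and Il10 region 6 were left out in this way. Among the lists that kept them, every Tconv percentile lay above every Treg percentile. Il10 region 1, also left out, ran the other way, with a single Tconv list. Of the other regions left out with values in both types, Ifng region 1, Il10 region 7 and Il4/Il13/Il5 regions 1, 2, 4, 5 and 8 overlapped. These differences were not tested. The genome-wide share of such splits among regions missing from some lists was not counted, so how common they are is unknown.

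**Figure D4:**
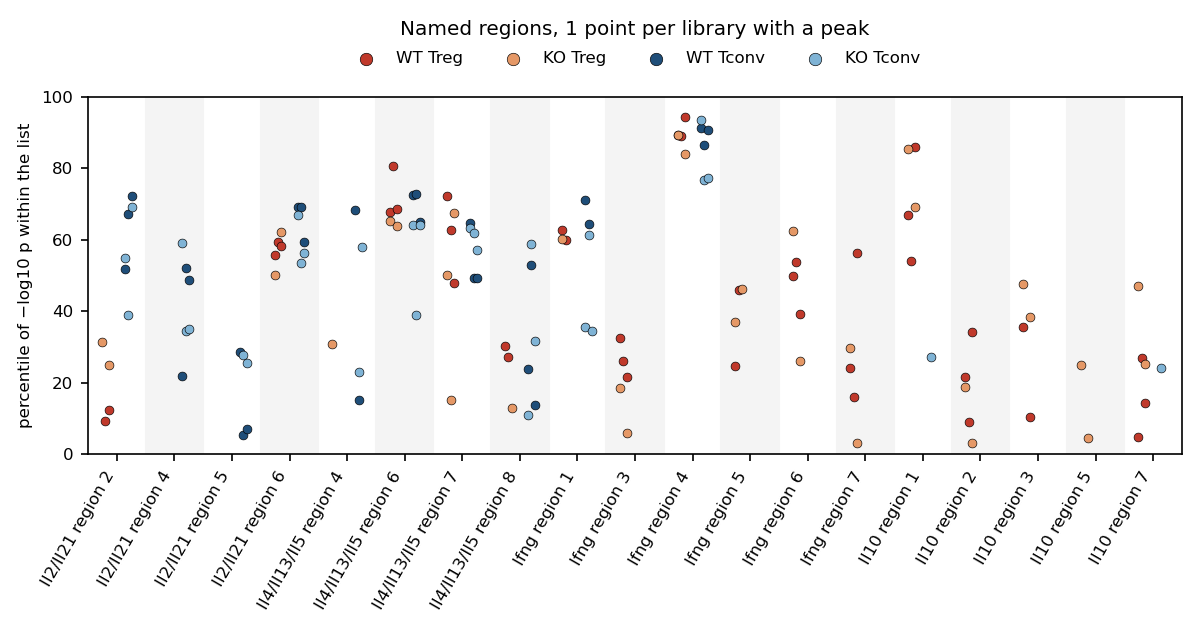
Within-list percentile of −log10 p (y axis) in each library, by group, with a point per library that had a peak. Shown are the regions that met the rule for full description. Il10 region 6 and Il4/Il13/Il5 region 3, which were added later, are not shown. Ifng region 4 sits between 76.7 and 94.3 in both cell types, while Il2/Il21 region 4 has Tconv points only and Ifng region 6 Treg points only.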

How the data were processed

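The 12 lists of broad peaks, 1 for each library, were taken as the authors deposited them. Per the submitters' processing notes, the tools include Trim Galore 0.4.4, Bowtie2 and MACS2, with no role or order, and the build is NCBIM37. Read filters and any shift of cut sites are not stated. The authors' peak caller gave the deposited fold ratio, −log10 p, −log10 q and score of each peak, and here they describe or rank peaks within 1 list only.

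Overlapping or touching peaks were merged into regions, and those found in 2 or more libraries were kept. Presence needed an overlap of 1 bp, and the strongest peak gave the percentile. Groups and replicate numbers came from sample titles, and each list's library from the deposit record. Fisher's exact tests used scipy 1.17.1. The calling rule was also run on simulated data, with planted regions closed in one type and open in the other as each library's yield allowed. Such regions fit the rule by design, so their recovery does not show how the rule treats weak peaks. Regions were described in full if called, if among the 2 highest-ranked of their window, or if most different in presence there. Il10 region 6 and Il4/Il13/Il5 region 3 were added after their values were seen, as were the 200-kb tiles and the Tconv ranking by genotype. The windows, genes and tests were chosen with earlier results of these data known. Alternatives covered the peak threshold, list length, overlap, call rule, window edges and each library left out.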

Additional observations from a re-analysis of the deposited data

How the results depend on the processing

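Of 120 alternative values for the 6 counts of called regions, 100 stayed within 1.5 times the main count and 20 moved. The counts of regions lost or gained in KO were 0 in the main setting, and most of their alternatives stayed at 0. Most of the 20 moves fell on the Treg-enriched and Tconv-enriched counts, so the pooled 100 overstates how stable those calls were. The 4 Treg-enriched regions became 1 with a −log10 q of at least 5, 0 with every list reduced to its 5262 strongest peaks, 1 when a peak had to cover 50% of the region, 8 with 2 libraries allowed against the pattern, 0 with none allowed and 0 in KO libraries alone. The 2 Tconv-enriched regions became 1, 0, 1, 2, 1 and 1 under the same settings. At 21269 peaks without KO Treg replicate 2, 5 regions were Treg-enriched and 1 was Tconv-enriched. Treg minus Tconv libraries fell there from 5 to 3 at Il10 region 2 and Ifng region 7, which lost their call. Under the −log10 q minimum it fell from 5 to 2 at Il10 region 2 and to 3 at Ifng regions 3 and 7, and stayed at 5 at Ifng region 6. Leaving out 1 library gave 4 to 8 Treg-enriched regions, the 8 without KO Treg replicate 2, and 2 to 2 Tconv-enriched regions. Lost in KO Treg became 1 under the −log10 q minimum (Ifng region 3). Gained regions became 1 in KO Treg (Il10 region 5) and 1 in KO Tconv (Il2/Il21 region 3) when 2 of 3 libraries sufficed, and ranged from 0 to 1 in each when a library was left out, the 1 without KO Treg replicate 2 and without KO Tconv replicate 2.

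Treg minus Tconv libraries reversed from -2 to 1 at Ifng region 1 under 50% coverage and from -1 to 1 at Ifng region 4 with 5262 peaks. With the replicate number as a block, 0 regions were Treg-enriched and 1 was Tconv-enriched, and 0 were lost or gained in KO. That exact sign test passes only where all 6 Treg and Tconv pairs differ in 1 direction. A region absent from KO Treg replicate 2 cannot reach this in the Treg direction. It can in the Tconv direction, as Il2/Il21 region 4 did, so the short list bars Treg calls and not Tconv calls. The labels do not say whether same-numbered libraries share an animal, and the correlations of their deviations, -0.0283 to 0.0608, neither show nor exclude it. Unknown depth and the peak limit of each list bound what presence can show.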
